A study of Rattus norvegicus with 90 samples.

Results

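A set of 150 transcripts was expressed in all 3 rat cell types of this study and, 9 h after exposure to a high dose of thioacetamide-S-oxide, differed from vehicle in cardiomyocytes while staying close to vehicle in hepatocytes and renal cells. They were taken from 40071 Ensembl transcripts. Levels were in CPM, the estimated count of a transcript divided by the library's total over these transcripts and scaled to a common total. The 9 h change was the log2 ratio of the mean CPM plus 1 at the high dose to the mean CPM plus 1 in vehicle. A transcript was kept if its mean CPM over the 10 vehicle and high-dose libraries at 9 h was at least 2 in each cell type, which 11421 transcripts met, and if its 9 h change lay between -0.3 and 0.3 in hepatocytes and in renal cells, which left 4949. Of these, 304 had a 9 h change in cardiomyocytes above 0.5 in size, and the 150 largest were taken. In this set 117 transcripts were higher at the high dose at 9 h (called here the higher set) and 33 were lower (the lower set). Among the 11421 transcripts at this level, 1302 had a cardiomyocyte change above 0.5 in size, so most of those also lay outside the limits in hepatocytes or renal cells.

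The study exposed cultured rat cells, labelled as of the Sprague-Dawley strain, to vehicle or to thioacetamide-S-oxide and sequenced poly-A-enriched RNA. Hepatocytes received 0.025 mM (low) or 0.125 mM (high), renal proximal tubular epithelial cells 0.125 or 0.5 mM, and cardiomyocytes 0.5 or 1.5 mM, each for 9 or 24 h. The vehicle was maintenance medium in hepatocytes and renal cells, and the medium of the cardiomyocytes, and whether these were primary cells, is not given in the sources used here. Each of the 18 groups held 5 libraries, 90 in all, and the labels do not say whether these came from separate animals, so p-values measure only the spread between these libraries, which may be technical.

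Thioacetamide-S-oxide is the first oxidation product of the liver toxicant thioacetamide, formed by cytochrome P450 and flavin-containing monooxygenases, and a further oxidation gives a reactive product that binds to proteins and lipids. Hepatocytes and proximal tubular cells are sites of xenobiotic metabolism, while cardiomyocytes are the contractile cells of the heart. One gene can give several transcripts that share exons, and a read from a shared exon is divided among them by the quantification.

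The libraries held between 10519414 and 55822031 estimated counts on transcripts. The exception was MS-183, a hepatocyte vehicle library at 24 h, with 249303. It ranked transcripts unlike its group, with a median Spearman correlation of -0.0278 with the other 4. Libraries MS-158 (cardiomyocytes, low dose, 9 h), MS-172 (cardiomyocytes, low dose, 24 h) and MS-145 (renal cells, low dose, 24 h) had correlations of 0.82 to 0.826, and the other 86 libraries lay between 0.96 and 0.994. None of the cardiomyocyte high-dose or vehicle libraries was among these 4. No library held values identical to another. The transcripts could not be paired with gene names (0 of them matched), so the cell types were not checked against marker genes, functions are not given and 4 transcripts are named by identifier alone. For the same reason, members that are transcripts of one gene could not be listed, and such transcripts can share reads. Among the 150, 4 transcripts of the higher set formed 2 pairs with identical counts in all 90 libraries (ranks 100 and 101, and 111 and 112 by size of the 9 h change), so the set holds 148 distinct measurements. None of the 4 was called in any of the 7 comparisons with all libraries. Of the 17286 transcripts tested in cardiomyocytes at the high dose at 24 h, 17201 were distinct. In these cultures, fewer cells of a type and less RNA per cell cannot be told apart.

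The 150 transcripts were of ordinary length. Their median length was 2052 bases (291 to 14900), against 2034 bases for the 4799 other transcripts that met the level and small-change criteria, called here the other candidates. Across the 90 libraries every estimated count was whole, to within 0.001, for 59 of the 150 (39.3%) and for 39.6% of the other candidates. A transcript with whole counts received no divided reads, while the other 91 shared reads with at least one other target. The median CPM in cardiomyocytes at 9 h was 27.9 in the 150 and 36.9 in the other candidates. Over all 11421 transcripts that met the level criterion it was 28.1. In hepatocytes these medians were 29.0, 37.9 and 26.9, and in renal cells 28.1, 40.2 and 29.5. The level of the 150 was thus below that of the other candidates and near that of all 11421.

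The 150 transcripts were not equally abundant in the 3 cell types. In the vehicle libraries at 24 h, leaving out MS-183, the ratio of the highest to the lowest of the 3 mean CPM values had a median of 3.10 over the 150 and ranged from 1.17 to 162. It was 2 or less for 29 transcripts and above 10 for 25. Of the higher set, 73 of 117 had their lowest level in cardiomyocytes and 77 had their highest level in hepatocytes. In the lower set the order was the other way, with 20 of 33 highest in cardiomyocytes and 21 lowest in hepatocytes. These counts are levels in vehicle and were not tested. The same counts were not made for the other candidates, so they do not show a trait particular to the set.

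The 9 h changes in cardiomyocytes chose the 150 transcripts and are given as a description. The higher set had changes of 0.64 to 2.03 (median 0.78), and 28 of the 117 were above 1. The lower set had changes of -2.37 to -0.65 (median -0.81), and 10 of the 33 were beyond -1. The last 3 transcripts inside the set had changes of 0.645, 0.644 and 0.641 in size, and the first 3 outside had 0.641, 0.636 and 0.633, so the end of the set has no gap. All 5 high-dose libraries lay above all 5 vehicle libraries for 110 of the 117, where 29.4% of the 4949 candidates did so. They lay below all vehicle libraries for 30 of the 33, where 9.74% of the candidates did so, and 39.1% of the candidates were separate in either direction. The rule used these libraries, and nothing is read from these counts.

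Summed over the 117 transcripts, the higher set took 4640 to 4917 CPM in the 5 vehicle libraries at 9 h, 5460 to 6710 at the low dose and 8840 to 9510 at the high dose. The lower set took 5587 to 5739 CPM in vehicle, 2304 to 5042 at the low dose and 3006 to 3489 at the high dose. Depth moved with dose at this time. The vehicle libraries held 17583672 to 25562619 counts on transcripts and the high-dose libraries 40216151 to 44028858, without overlap, and the part of depth in the 9 h values was not tested. At 24 h these ranges overlapped, at 20072735 to 32984684 in vehicle and 13391250 to 39714673 at the high dose.

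At 9 h the low dose of the cardiomyocytes lay between vehicle and the high dose for most of the set. The mean CPM was in the order of dose for 92 of the 117 transcripts of the higher set and for 28 of the 33 of the lower set. The median low-dose change was 0.25 in the higher set and -0.44 in the lower set, beside 0.78 and -0.81 at the high dose. Library MS-158 had the lowest median difference from vehicle in the lower set, -1.50, against -0.43 to -0.22 in the other 4 low-dose libraries. Without it the order of dose held for 101 and 27 transcripts and the medians were 0.29 and -0.31. The low and high doses were set against the same vehicle libraries, which the rule also used, so this order is not independent of the rule. At 9 h in the low-dose groups of hepatocytes and renal cells, the medians of both sets lay between -0.0048 and 0.0426.

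**Figure D1:**
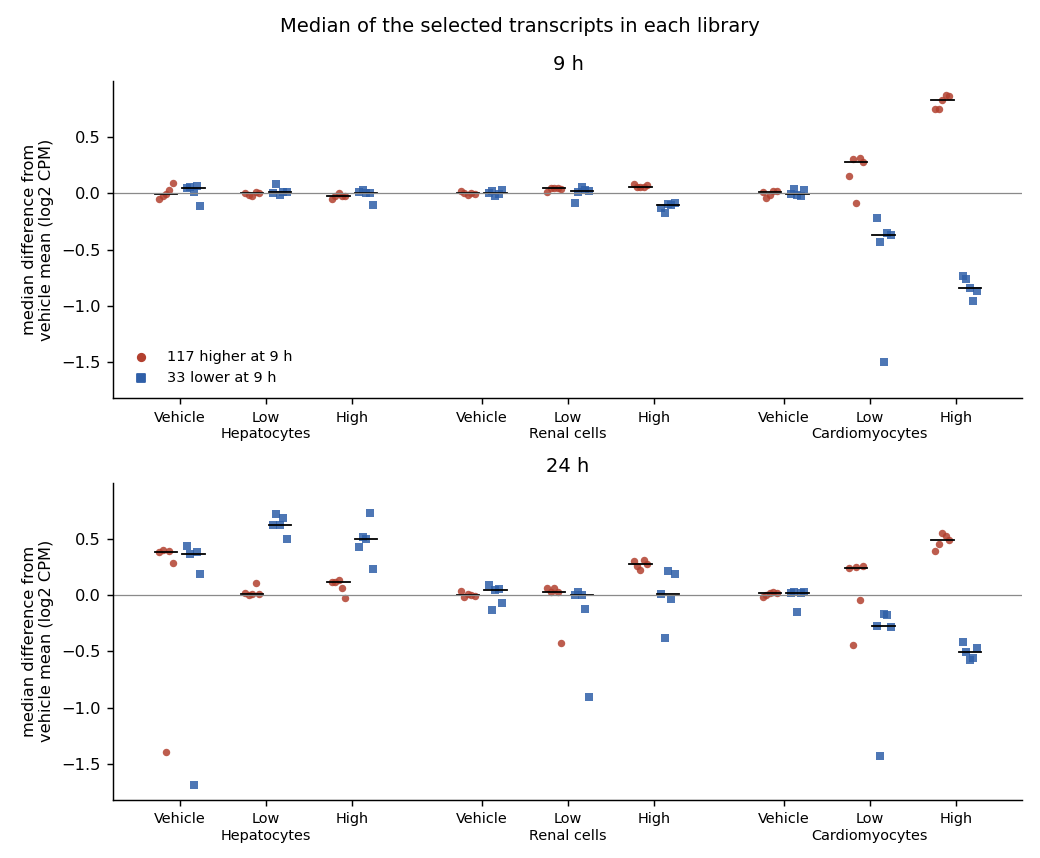
Each point is 1 library: the median, over the 117 transcripts higher at 9 h (circles) or the 33 lower at 9 h (squares), of the difference in log2(CPM + 1) from the mean of the vehicle libraries of the same cell type and time (for a vehicle library, of the other 4). Bars mark the median of 5 libraries. At 9 h the cardiomyocytes at the high dose lie at 0.75 to 0.87 and -0.95 to -0.73, values that chose the transcripts, and at 24 h, in libraries the choice did not use, at 0.39 to 0.55 and -0.57 to -0.42. The low point of the hepatocyte vehicle libraries at 24 h is MS-183, which also lowers the mean the other hepatocyte libraries at 24 h are set against.

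The 24 h libraries were not used by the rule, so the same contrast could be tested there. At the high dose in cardiomyocytes, 56 of the 150 transcripts were called, where 12.4% of the 17286 transcripts tested were called. A call required an adjusted p-value of at most 0.05 by edgeR's quasi-likelihood test and a fold change of at least 1.5. In the higher set 43 of 117 (36.8%) rose again and none fell. The background was 6.01% of all transcripts called higher and 6.39% called lower. In the lower set 12 of 33 (36.4%) fell again and 1 rose. The level criterion used the mean over both groups, and 8 of the 150 (6 in the higher set and 2 in the lower) met it in cardiomyocytes through 1 group, the other having a mean under 2 CPM at 9 h. Without these 8, 40 of 111 rose again and 12 of 31 fell again. Of the 4799 other candidates, chosen by the same criteria for level and for hepatocytes and renal cells, 2.23% were called.

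The sign of the change was mostly kept from 9 to 24 h. The 24 h log2 fold change had the sign of the 9 h change in 142 of the 150 transcripts (94.7%), 113 in the higher set and 29 in the lower, while it did so in 64.1% of the other candidates. By the rule the other candidates had smaller 9 h changes, at most 0.64 in size, so a lower share was built into this comparison. The share among transcripts with 9 h changes as large was not computed. The median log2 fold change at 24 h was 0.53 in the higher set and -0.55 in the lower set, and 0.00 over all transcripts tested. The quartiles were 0.33 and 0.80 in the higher set and -0.94 and -0.19 in the lower set. In 28 transcripts (20 of the higher set and 8 of the lower) the 24 h log2 fold change was larger than the 9 h change in the same direction, and in the other 122 it was smaller or opposite. The 9 h sizes chose the set and were computed with 1 added to each mean, so the sizes were not tested against each other.

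All 5 high-dose libraries lay above all 5 vehicle libraries at 24 h for 75 of the 117, where 12.9% of all transcripts tested did so, and below them for 20 of the 33, where 13.4% did so (26.3% in either direction). No transcript of either set was separate in the other direction. In the 5 high-dose libraries the median difference from vehicle was 0.39 to 0.55 over the higher set and -0.57 to -0.42 over the lower set, while it was 0.01 to 0.04 over the other candidates. The summed level of the higher set was 4719 to 5393 CPM in vehicle and 7586 to 8672 CPM at the high dose at 24 h. That of the lower set was 4775 to 5183 CPM in vehicle and 3679 to 3958 CPM at the high dose.

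**Figure D2:**
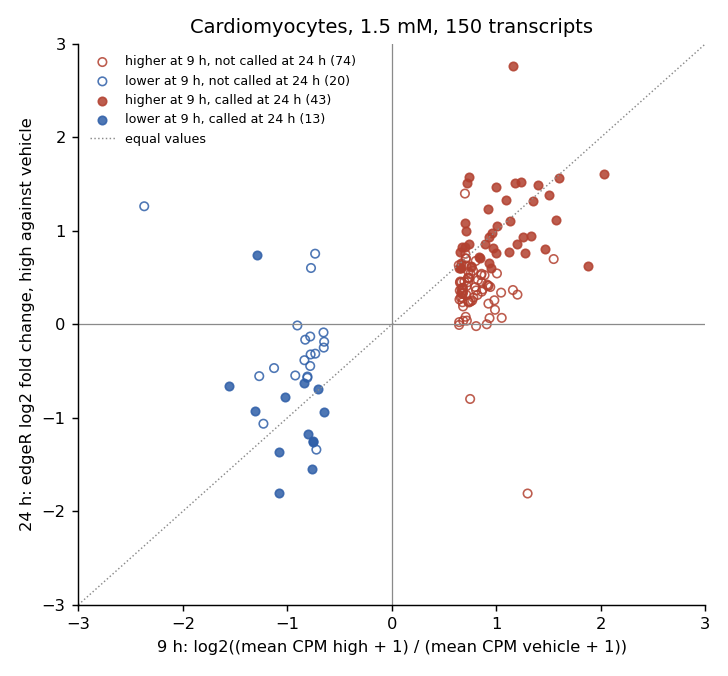
Each point is 1 of the 150 transcripts in cardiomyocytes, with the 9 h change that chose it on the horizontal axis and the edgeR log2 fold change at 24 h on the vertical axis, both for 1.5 mM against vehicle. Filled points were called at 24 h, 43 in the higher set and 13 in the lower set, and the dotted line marks equal values. Of the 150 points, 142 lie in the 2 quadrants of equal sign, and 28 of these lie beyond the dotted line.

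The calls at 24 h spanned the range of the 9 h change and of level. Of the 38 transcripts with a 9 h change of at least 1 in size, 26 were called in the same direction at 24 h, and their median 24 h change in the 9 h direction was 0.89. This was 68.4%, beside 66.8% of the 594 transcripts with a change of that size among all those tested at 24 h, whatever their change in the other cell types. Of the 112 with a smaller change, 29 were called (25.9%), and the median was 0.45, beside 38.2% of the 935 transcripts whose 9 h change lay in the same range of size. The share of the 150 called was thus near or below that of other transcripts with 9 h changes as large. By mean CPM in cardiomyocytes at 9 h, 8 of the 34 under 10, 41 of the 97 from 10 to 100 and 6 of the 19 above that were called in their 9 h direction, where 13.2%, 8.05% and 10.3% of all transcripts of those levels were called in theirs. These counts were not tested against each other. Restricting the fit to transcripts with whole counts in all libraries, 25 of 59 were called, all in their 9 h direction (15 of 44 in the higher set and 10 of 15 in the lower), where 15.7% of the 6323 such transcripts were called.

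The 8 transcripts with opposite signs at 9 and 24 h had 24 h log2 fold changes between -1.81 and 1.26. Of them, 4 had a mean CPM under 10 at 9 h, and 2 had whole counts. The transcript called against its 9 h direction stood at rank 15 by size and did not have whole counts. Its level in cardiomyocytes at 9 h was 52.97 ± 9.63 CPM (SD, n = 5) in vehicle and 21.0 ± 1.45 at the high dose. At 24 h it was 16.8 ± 2.15 in vehicle and 28.5 ± 8.01 at the high dose, a log2 fold change of 0.75 (SE 0.17, edgeR adjusted p = 0.00639). Without high-dose library MS-178, which held 13391250 counts, its fold change was under the threshold, and with all cardiomyocyte groups in 1 fit it was not called either. Leaving out MS-178 left 51 of the 150 called, 38 higher in the higher set and 13 lower in the lower set, where 2467 of 17668 transcripts (14%) were called.

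At the low dose at 24 h the cardiomyocytes gave no call by edgeR, in the 150 or among all 16998 transcripts tested (0.0%). An unadjusted p under 0.05 was reached by 46 of the 150 (30.7%) and by 2028 of all transcripts (11.9%), limma also gave 0 calls in the 150, and DESeq2 gave 7, of which 6 were higher in the higher set and 1 lower in the lower set, where it called 1.06% of all transcripts. The low-dose log2 fold change had the sign of the 9 h high-dose change in 127 of the 150, with medians of 0.30 in the higher set and -0.26 in the lower. The low-dose libraries were less alike than the vehicle and high-dose libraries of cardiomyocytes at 24 h. The median SD in log2(CPM + 1) over the 150 was 0.47, beside 0.15 in vehicle and 0.16 at the high dose. The 5 low-dose libraries lay above all vehicle libraries for 5 of the 117, where 0.7% of all transcripts did so, and below them for 7 of the 33, where 4.04% did so (4.74% in either direction). Without library MS-174, 6 of the 150 were called, 5 higher in the higher set and 1 lower in the lower, where 0.751% of all transcripts were called. Without MS-172 none of the 150 was called, and 7 of 17218 transcripts were.

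Some of the set also differed between the doses of the cardiomyocytes at 24 h. Between 1.5 and 0.5 mM, 19 of the 150 were called, where 5.64% of 17098 transcripts were called. All 19 were in the 9 h direction, 12 higher in the higher set (2.11% of all transcripts were called higher) and 7 lower in the lower set (3.53% of all were called lower), and all 19 were also called between the high dose and vehicle, a comparison that shares the high-dose libraries. The high-dose libraries lay above all low-dose libraries for 54 of the 117, where 13.1% of all transcripts did so, and below them for 5 of the 33, where 3.71% did so (16.8% in either direction). The median log2 difference between the doses was 0.29 in the higher set and -0.23 in the lower. Without MS-172 and MS-178, a choice made after the data were seen, 26 were called, again all in the 9 h direction, where 9.75% of all transcripts were called. The mean CPM at 24 h was in the order of dose for 62 of the 117 and 17 of the 33, and without MS-172 and MS-178 for 87 and 21.

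In renal cells, which the rule held close to vehicle at 9 h, a smaller share was called at 24 h than among all transcripts. At 0.5 mM, 24 of the 150 were called, where 26.9% of 17798 transcripts were called and 8.38% of the other candidates. In the higher set 15 were called higher and 2 lower, and in the lower set 1 was called higher and 6 lower. The background was 12% called higher and 14.9% called lower. The median log2 fold change was 0.24 in the higher set, -0.03 in the lower and 0.02 over all transcripts. The median difference from vehicle over the higher set was 0.23 to 0.31 in the 5 high-dose renal libraries and 0.05 to 0.16 over the other candidates. All high-dose libraries lay above all vehicle libraries for 46 of the 117 and below them for 7, where 23.7% and 18.1% of all transcripts did so (41.8% in either direction), and in the lower set they lay above for 6 and below for 10 of the 33. Of the 55 transcripts called in cardiomyocytes in their 9 h direction, 11 were also called in renal cells in the same direction and 2 in the opposite one (20% and 3.64%), beside 39.8% and 11.5% of the 1776 transcripts called in cardiomyocytes and tested in renal cells.

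In hepatocytes at 0.125 mM at 24 h, 23 of the 150 were called, where 10.4% of 16325 transcripts were called (6.65% higher and 3.72% lower) and 4.86% of the other candidates. In the higher set 8 were called higher and 7 lower, and in the lower set 6 higher and 2 lower. This count rested on the libraries used: without MS-183, 57 were called (15 higher and 22 lower in the higher set, 12 higher and 8 lower in the lower set), where 26.7% of all transcripts were called, and all 23 earlier calls were among them in the same direction. All high-dose libraries lay above all vehicle libraries for 16 of the 117 and below them for 14, where 15.2% and 6.02% of all transcripts did so (21.2% in either direction), and above for 7 and below for 2 of the 33. The count of calls was 13 without MS-119 (6.35% of all transcripts), and 14 without each of MS-116, MS-117, MS-118 and MS-185 (6.32%, 6.19%, 6.04% and 6.56% of all). The median log2 fold change was -0.17 in the higher set and 0.22 in the lower, and -0.23 and 0.31 without MS-183, signs opposite to those in cardiomyocytes. The hepatocyte vehicle level itself moved from 9 to 24 h. Its median log2 change was 0.20 in the higher set, -0.21 in the lower and 0.03 over the other candidates. The part of this shift in the hepatocyte fold changes was not tested. Of the 55 transcripts called in cardiomyocytes in their 9 h direction, 5 were called in hepatocytes in the same direction and 7 in the opposite one (9.09% and 12.7%), beside 4.93% and 16.2% of the 1439 transcripts called in cardiomyocytes and tested in hepatocytes. Without MS-183 these were 11 and 13 (20% and 23.6%), beside 14% and 35% of 1474.

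**Figure D3:**
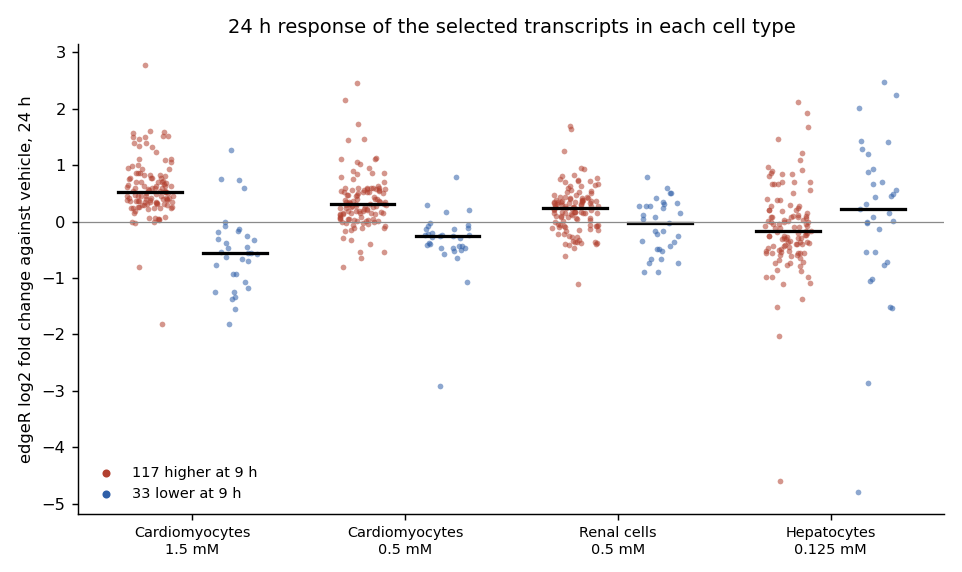
Each point is the edgeR log2 fold change against vehicle at 24 h of 1 transcript, in cardiomyocytes at both doses and in renal cells and hepatocytes at their high dose, with a bar at the median. Red points are the 117 transcripts higher at 9 h and blue points the 33 lower at 9 h. The 2 sets have medians of 0.53 and -0.55 in cardiomyocytes at 1.5 mM, 0.30 and -0.26 at 0.5 mM, 0.24 and -0.03 in renal cells, and -0.17 and 0.22 in hepatocytes, where MS-183 is included.

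The difference between cell types was tested as an interaction, the high-dose response of cardiomyocytes minus that of the other cell type at 24 h. Against renal cells, 44 of the 150 differed (29.3%), where 21.2% of 19306 transcripts did so and 9.73% of the other candidates. Of the 44, 42 were in the 9 h direction: in the higher set 29 had a higher response in cardiomyocytes, and in the lower set 13 had a lower one. The 2 others were in the higher set and had a lower response in cardiomyocytes. The background was 11.3% higher and 9.88% lower.

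Against hepatocytes, 63 of the 150 differed (42.0%), where 17.3% of 19178 transcripts did so (8.32% higher and 8.97% lower) and 11.5% of the other candidates. Of these, 56 were in the 9 h direction, 42 in the higher set and 14 in the lower, and 7 were against it. Without MS-183 there were 89, of which 79 were in the 9 h direction, where 28.4% of all transcripts differed. In 24 transcripts both differences were called in the 9 h direction, where 3.64% of the 18207 transcripts tested in both were called in one direction. Of the 24, 16 were higher in the higher set (1.98% of all) and 8 lower in the lower set (1.65% of all). Without MS-183 there were 31, 22 higher and 9 lower, where 5.46% of all transcripts were called in both (2.75% higher and 2.71% lower). Both differences use the same cardiomyocyte libraries, so they are not independent of each other. The hepatocyte response is set against vehicle at 24 h, whose shift from 9 h is given above.

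The cell types received different doses, so cell type and concentration cannot be told apart in these differences. The cardiomyocytes shared 1 dose with another cell type, 0.5 mM, which was their low dose and the high dose of renal cells. At this dose at 24 h, in a comparison added after the data were seen, 17 of the 150 differed between the cell types (11.3%), where 17.1% of 19129 transcripts did so. Of the 17, 10 were in the 9 h direction and 7 against it. The median difference between the responses was -0.01 in the higher set (0.24 at the high doses) and -0.26 in the lower (-0.46 at the high doses), and -0.02 over all transcripts. The medians within each cell type at 0.5 mM were 0.30 in cardiomyocytes and 0.24 in renal cells for the higher set, and -0.26 and -0.03 for the lower set. This comparison includes MS-172 and the uneven low-dose libraries described above.

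**Figure D4:**
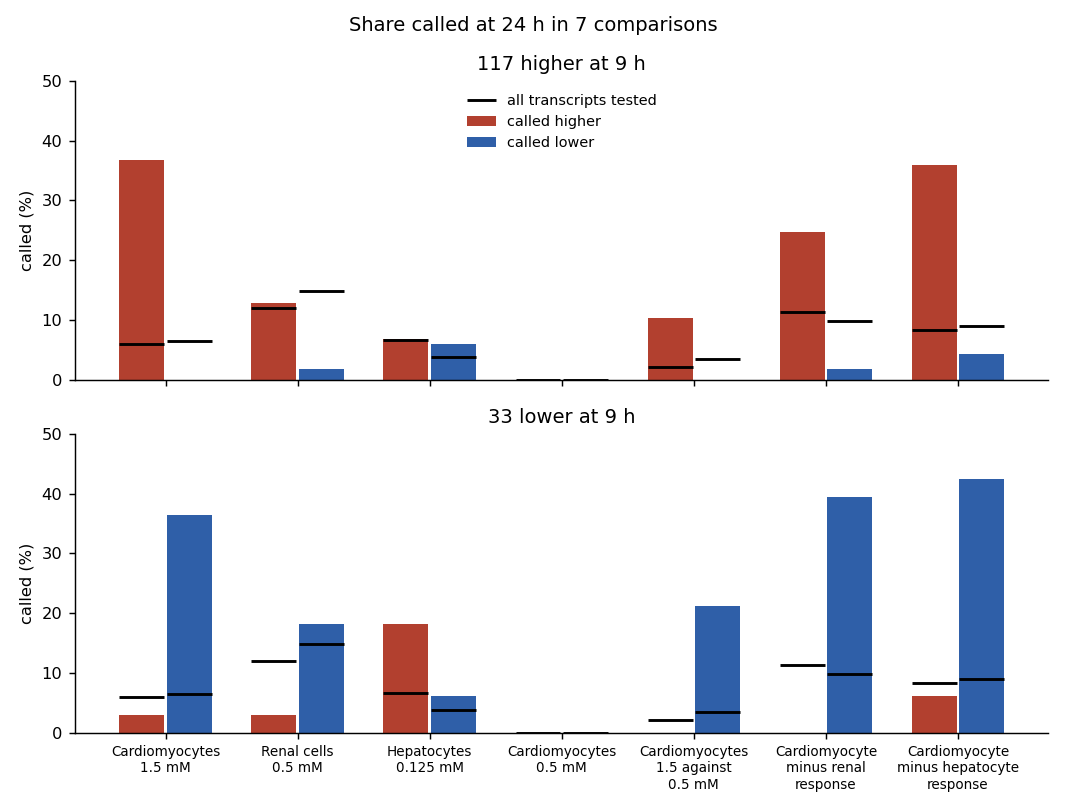
Bars give the percent of the 117 transcripts higher at 9 h (top) and of the 33 lower at 9 h (bottom) that were called higher (red) or lower (blue) in each of 7 comparisons at 24 h, and black lines give the percent of all transcripts tested. In cardiomyocytes at 1.5 mM, 36.8% of the first set were called higher against 6.01% of all transcripts and 36.4% of the second set lower against 6.39%. In renal cells the higher set lies near the line for calls higher, at 12.8% against 12%, and below it for calls lower, at 1.71% against 14.9%.

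The largest 9 h change in the higher set was in ENSRNOT00000077784, a transcript of 3270 bases that shares reads with another target. Its level in cardiomyocytes at 9 h was 181, 187, 188, 192 and 193 CPM in the vehicle libraries, 131, 255, 343, 348 and 367 CPM at the low dose and 750, 753, 762, 790 and 813 CPM at the high dose. The value of 131 was in MS-158. At 24 h it was 260, 263, 270.0, 270.1 and 281 CPM in vehicle, 188, 237, 594, 614 and 618 CPM at the low dose and 776, 779, 847, 849 and 859 CPM at the high dose. The low-dose libraries at 24 h thus held 2 libraries below the vehicle range, MS-172 and MS-174, and 3 between vehicle and the high dose. The 24 h log2 fold change at the high dose was 1.61 (SE 0.05, edgeR adjusted p = 2.5e-09). At the low dose it was 0.86 (SE 0.25, edgeR adjusted p = 0.286).

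In the other cell types ENSRNOT00000077784 had mean levels in vehicle at or above those of cardiomyocytes, and its changes were smaller. In renal cells at 24 h it had 281 ± 4.37 CPM in vehicle and 353 ± 17.4 CPM at the high dose (SD, n = 5). The log2 fold change of 0.27 (SE 0.04, edgeR adjusted p = 0.000405) was under the fold threshold. In hepatocytes it had 550 to 600 CPM in 4 vehicle libraries, 161 CPM in MS-183 and 508 to 584 CPM at the high dose. Its log2 fold change there was 0.07 with MS-183 and -0.15 without. The response in cardiomyocytes exceeded that in renal cells by 1.31 (SE 0.07, edgeR adjusted p = 1.69e-11) and that in hepatocytes by 1.50 (SE 0.38, edgeR adjusted p = 0.0101).

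The largest 9 h change in the lower set, ENSRNOT00000064349 (1897 bases), was not seen again at 24 h. At 9 h it had 2.28, 3.84, 4.56, 5.24 and 5.62 CPM in vehicle, at most 0.0907 CPM at the high dose, and at the low dose 1.35 CPM in MS-159 with the other 4 libraries near 0. It met the level criterion in cardiomyocytes only through the vehicle libraries. At 24 h the vehicle libraries had 0, 0, 0.431, 3.55 and 6.07 CPM and the high-dose libraries 1.36, 2.32, 6.04, 7.24 and 7.64 CPM, so the groups overlapped. The log2 fold change was 1.26 (SE 1.09, edgeR adjusted p = 0.431), opposite in sign to the 9 h change. It ranged from 0.95 to 2.23 when 1 library was left out, the highest being without vehicle library MS-166, and no call was made in any of these fits. Its counts were not whole, so part of its reads was divided with another target, and libraries of 1 group differed from none to several CPM.

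Among the other transcripts called at 24 h in their 9 h direction, ENSRNOT00000076924 (2199 bases) had the largest increase. It is a transcript of low level in cardiomyocytes, with 5 to 14.2 estimated counts in the vehicle libraries at 24 h and 35 to 151 at the high dose. It met the level criterion in cardiomyocytes only through the high-dose libraries at 9 h, with a mean of 0.977 CPM in vehicle and 3.43 CPM at the high dose, so its 9 h difference is in part set by the rule. At 9 h it had 0, 1.13, 1.14, 1.25 and 1.36 CPM in vehicle and 2.80, 3.20, 3.68, 3.71 and 3.76 CPM at the high dose. In the vehicle libraries at 24 h it had 0.249, 0.432, 0.466, 0.522 and 0.577 CPM and at the high dose 2.61, 2.76, 2.96, 3.27 and 3.80 CPM, a log2 fold change of 2.77 (SE 0.24, edgeR adjusted p = 8.63e-06). The low-dose libraries at 24 h lay from 0 to 1.02 CPM, at or near the level of vehicle, and the high dose exceeded the low dose by 2.28 (SE 0.50, edgeR adjusted p = 0.0216). In renal cells the level at 24 h was 2.63 ± 0.406 CPM in vehicle and 2.18 ± 0.258 CPM at the high dose (SD, n = 5), with an edgeR adjusted p of 0.0991. In hepatocytes it was 19.6 to 23.6 CPM in 4 vehicle libraries, 0 in MS-183 and 35.9 to 51.8 CPM at the high dose. Without MS-183 it was called higher there as well, with a log2 fold change of 0.96 (SE 0.09, edgeR adjusted p = 1.84e-05). The hepatocyte vehicle libraries had 45.1 to 52.8 CPM at 9 h, so the vehicle level was lower at 24 h than at 9 h. The high-dose libraries of hepatocytes had 37.6 to 43.7 CPM at 9 h. The response in cardiomyocytes exceeded that in renal cells by 3.07 and that in hepatocytes by 1.69, and both differences were called.

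Among the transcripts called at 24 h in their 9 h direction, the largest decrease was in ENSRNOT00000040637 (3251 bases), whose counts were whole in all libraries. Its level in cardiomyocytes at 9 h was 7.75, 9.27, 9.39, 9.50 and 10.2 CPM in vehicle, 6.49, 6.56, 7.28, 7.74 and 7.76 CPM at the low dose and 3.17, 3.70, 3.90, 4.14 and 4.36 CPM at the high dose. At 24 h it was 17.2, 17.3, 17.7, 17.7 and 19.4 CPM in vehicle, 10.6, 10.9, 11.2, 11.98 and 21.7 CPM at the low dose and 3.29, 5.14, 5.46, 5.47 and 6.02 CPM at the high dose. All high-dose libraries lay below all others at each time, and the value of 21.7 CPM at the low dose was in MS-174. The log2 fold change at the high dose at 24 h was -1.81 (SE 0.14, edgeR adjusted p = 3.13e-06), and the high dose differed from the low dose by -1.60 (SE 0.28, edgeR adjusted p = 0.00705).

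ENSRNOT00000040637 changed in all 3 cell types at 24 h, in 2 directions. In renal cells it fell from 6.95 ± 0.554 to 4.55 ± 0.597 CPM (SD, n = 5), and the log2 value was -0.67 (SE 0.13, edgeR adjusted p = 0.00102). In hepatocytes it rose, from 10.5 to 11.8 CPM in 4 vehicle libraries and 0 in MS-183 to 24.99 to 31.03 CPM at the high dose, a log2 fold change of 1.43 (SE 0.29, edgeR adjusted p = 0.00989) and of 1.32 without MS-183. The hepatocyte vehicle libraries had 24.6 to 36.5 CPM at 9 h, so the vehicle level was lower at 24 h than at 9 h, while the high-dose libraries had 22.5 to 32.6 CPM at 9 h. The cardiomyocyte response was lower than the renal one by a log2 difference of -1.17 (SE 0.20, edgeR adjusted p = 0.000113) and than the hepatocyte one by -3.22 (SE 0.29, edgeR adjusted p = 1.35e-07).

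**Figure D5:**
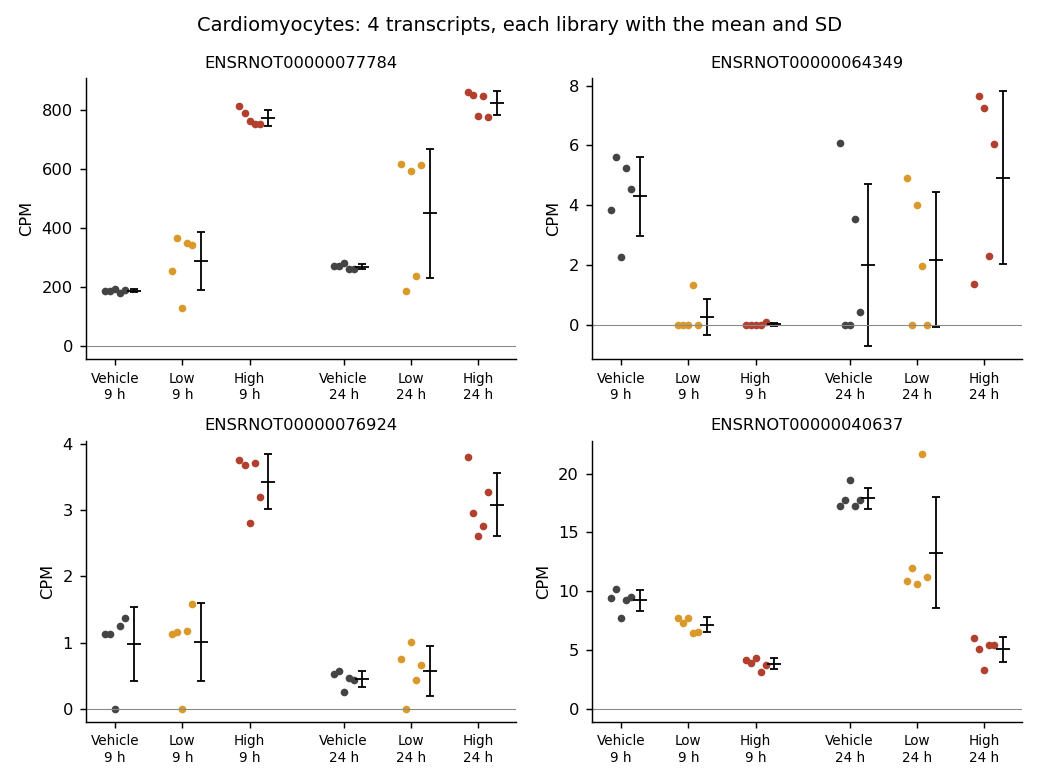
CPM of the 4 named transcripts in each cardiomyocyte library (points) by dose and time, with the mean and SD of 5 libraries beside them. In ENSRNOT00000077784, ENSRNOT00000076924 and ENSRNOT00000040637 the high-dose and vehicle libraries do not overlap at either time, and in ENSRNOT00000064349 they overlap at 24 h.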

How the data were processed

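The authors pseudo-aligned reads with kallisto (0.42.4 per the labels) to the Rnor_6.0 transcriptome and deposited, for each library, the estimated counts, TPM and length of 65166 targets. The TPM values deposited by the authors are scaled to transcript length, and were used only to repeat the selection. The 25095 genomic intervals among the targets were left out. The members and comparisons were chosen with earlier results of these data known.

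Estimated counts were rounded, and the 24 h groups were compared with edgeR 4.0.16 under R 4.3.3: filterByExpr, TMM scaling and the quasi-likelihood test, with Benjamini-Hochberg adjustment over all transcripts tested. A call required an adjusted p no higher than 0.05 and a change of 0.41 or more on the natural-log scale (1.5-fold). The SE was the log2 fold change over the square root of F. In all, 7 comparisons were tested. Alternatives were DESeq2 1.42.0, upper-quartile scaling, no filter, limma 3.58.1 on log2(CPM + 0.5), other fold thresholds, all groups in 1 fit, whole counts only and leaving out libraries. The fits were tested on simulated data. Named transcripts are those with the largest 9 h change in each direction and, among the others called at 24 h in their 9 h direction, the largest 24 h change in each direction. Transcripts of low level rest on few counts, and counting error was not estimated apart from the spread between libraries.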

Additional observations from a re-analysis of the deposited data

Results flagged for a closer look

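Within groups of 5 libraries, 60 sets of values were searched for a library set far apart from the other 4 (Dixon's test), and 15 sets held one, where chance gives about 3.0. Of these, 6 were medians in the 4 libraries whose ranks differed from their group: the median difference from vehicle over the higher set was -1.40 in MS-183 and -0.42 in MS-145, and over the lower set it was -1.69 in MS-183, -0.90 in MS-145, -1.43 in MS-172 and -1.50 in MS-158. The other medians set apart were smaller, at 0.11 over the higher set in MS-114 (hepatocytes, low dose, 24 h), and over the lower set at -0.15 in MS-168 (cardiomyocytes, vehicle, 24 h) and -0.10 in MS-105 (hepatocytes, high dose, 9 h). Among the named transcripts in cardiomyocytes, ENSRNOT00000064349 stood apart at 0.0907 CPM in MS-165 and at 1.35 CPM in MS-159, ENSRNOT00000076924 at 0.0 CPM in MS-158 and at 0.0 CPM in MS-153, and ENSRNOT00000040637 at 21.7 CPM in MS-174 and at 19.4 CPM in MS-168.

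The high-dose response at 24 h differed between cell types in 44 of the 150 transcripts for cardiomyocytes against renal cells and in 63 against hepatocytes, by edgeR's interaction test at an adjusted p of at most 0.05 and a 1.5-fold difference or more. In ENSRNOT00000077784 the log2 difference was 1.31 against renal cells and 1.50 against hepatocytes. In ENSRNOT00000076924 it was 3.07 and 1.69, and in ENSRNOT00000040637 -1.17 and -3.22. The doses differed between the cell types in each of these comparisons.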

How the results depend on the processing

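Of 285 values under an alternative setting, 253 kept their side, sign or size and 32 moved by more than the limit set for them. Most of these values are counts, which carry no sign. The median difference from renal cells, which is not among them, was 0.24 at the high doses and -0.01 at 0.5 mM in the higher set, and -0.46 and -0.26 in the lower. Counts of the 150 transcripts called at 24 h, in the order cardiomyocytes at the high dose, renal cells, hepatocytes, high against low dose, cardiomyocytes minus renal cells and cardiomyocytes minus hepatocytes, were 56, 24, 23, 19, 44 and 63, beside 12.4%, 26.9%, 10.4%, 5.64%, 21.2% and 17.3% of all transcripts tested. With a fold change of at least 2 they were 23, 3, 13, 9, 24 and 41, beside 6.44%, 13.2%, 7.9%, 2.93%, 11.7% and 12.9% of all. Without a fold threshold they were 103 and 86 in cardiomyocytes and renal cells (30.7% and 53.2% of all), 34 for high against low dose (8.58%) and 71 for cardiomyocytes minus renal cells (35.2%). With whole counts only, 25, 12, 21 and 37 were called at the high dose in cardiomyocytes, in renal cells, and in the differences from renal cells and hepatocytes, beside 15.7%, 31.1%, 26.9% and 28.7% of such transcripts. The hepatocyte count was 39 with DESeq2 (21.7% of all), 52 with all groups in 1 fit (27%), 9 with limma (5.02%), 5 without a filter (1.84%) and, added after the data were seen, 67 with a weight per library (30.2%). High against low dose gave 30 with DESeq2 (10.3%) and 34 with all groups in 1 fit (13.1%), and the low dose against vehicle gave 7 with each (1.06% and 1.11%). The difference from hepatocytes was called in 33 with limma (11.1%), and that from renal cells in 17 at 0.5 mM (17.1%). Leaving out each library in turn gave 51 to 56 in cardiomyocytes at the high dose, 21 to 25 in renal cells, 13 to 57 in hepatocytes, 0 to 6 at the low dose, 14 to 26 for high against low dose, 43 to 47 for the difference from renal cells and 50 to 89 for that from hepatocytes. In that order, 11.2% to 14%, 25.9% to 27.1%, 6.04% to 26.7%, 0% to 0.751%, 3.42% to 8.41%, 19.9% to 22% and 13.7% to 28.4% of all transcripts were called. The cause of these shifts was not tested, except that fewer transcripts with whole counts were tested. Of the 150 transcripts, 136 to 147 were chosen again when 1 library was left out, and 112 to 146 under other pseudocounts, level limits or scalings. No paired analysis was possible because the groups compared share no replicate numbers.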
